A study of Mus musculus with 4 samples.

Results

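Heat shock proteins are chaperones, proteins that help other proteins to fold, keep them from clumping and deliver damaged ones for degradation. The 10 genes described here were taken by name, as Hspa1a, Hspa1b, Hspa8, Hsph1, Hsp90aa1, Hspe1, Hspd1, Hspb1, Dnajb1 and Dnaja1, and all 10 were present among the 29897 genes listed in any of the 4 count matrices. The question was how their transcripts differed between the cell types of the mouse colon, and whether lymphocytes moved opposite to endothelial and epithelial cells after exposure to carbon tetrachloride (CCl4). CCl4 is a liver toxin used to model cirrhosis. There were 2 control libraries and 2 CCl4 libraries of single cells. CCl4 was given for 6 weeks to specific pathogen-free mice that were 6 weeks old at the start, and colon tissue was then dissociated enzymatically and sequenced from polyadenylated RNA in droplets. The sources used here do not give the age and handling of the controls, the strain, the sex or the number of animals per library. The p-values within a class therefore measure the spread between libraries, which may be technical.

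Hsp70 proteins bind exposed greasy stretches of unfolded proteins, J-domain proteins hand them such clients, and Hsp110 proteins release the bound nucleotide so that the cycle can start again. Hsp90 takes over clients such as kinases and steroid receptors, the chaperonin pair Hspd1 and Hspe1 folds proteins in mitochondria, and the small heat shock protein Hspb1 holds unfolded proteins without using ATP. Their genes are switched on by heat shock factors, which bind repeats of the bases GAA, after heat, oxidants and also the enzymes and temperatures used to make single cells from a tissue.

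The libraries held between 55834301 and 92383719 counts, the lowest in control library 1 and the highest in CCl4 library 1, and 8086 to 10382 cells per library were used. The median mitochondrial share of the cells used was 4.84% and 4.55% for control libraries, against 7.52% and 6.84% for CCl4 libraries. Of 38852 filtered cells, 0 had the count profile of a cell in another library. Clusters were named from marker genes, and 12 classes had at least 20 cells in every library and were tested: T cell, B cell, plasma cell, blood endothelial, lymphatic endothelial, colonocyte, goblet, undivided epithelial, fibroblast, smooth muscle, glia, and macrophage and monocyte. A class name stands for clusters that resemble that cell type. The T cell class joined cluster 7, led by Emb, Il2rb, Icos, Gzma and Ccl5, and cluster 9, led by Gata3, Ifng, Il5 and Il4, and the second-best marker set of both was that of natural killer and innate lymphoid cells, which formed no class of their own. Each class was summed to 1 count profile per library, so that libraries and not cells were the replicates. Levels are given as CPM, counts scaled to a common total and, within the class, by the TMM method.

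The regions upstream of 4 members are shown because these genes carried most of the changes described below: Hspa1a and Hspa1b, which lie next to each other on chromosome 17, Dnajb1, and Hspb1. The sequences are RefSeq's on GRCm38.p6 and read 5′ to 3′ on the strand of the gene up to the base before its annotated start. Capitals mark the motif GAANNTTC or TTCNNGAA, in which 2 GAA units face each other, searched on both strands. The Hspa1a region is chr17:34972157-34972406 (minus strand), the Hspa1b region chr17:34959239-34959488 (minus strand), the Hspb1 region chr5:135887669-135887918 (plus strand), and the Dnajb1 region chr8:83607975-83608174 (plus strand), which is limited to 200 bases because an exon of another gene lies farther upstream. In GENCODE's annotation of GRCm38 the genes themselves span chr17:34969190-34972156 for Hspa1a, chr17:34956436-34959238 for Hspa1b, chr5:135887919-135889563 for Hspb1 and chr8:83608193-83612653 for Dnajb1.
Hspa1a: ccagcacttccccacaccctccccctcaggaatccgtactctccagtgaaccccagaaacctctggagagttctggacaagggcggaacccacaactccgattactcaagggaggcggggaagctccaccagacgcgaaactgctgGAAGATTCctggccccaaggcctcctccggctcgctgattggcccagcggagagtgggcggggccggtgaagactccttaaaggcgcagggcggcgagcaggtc
Hspa1b: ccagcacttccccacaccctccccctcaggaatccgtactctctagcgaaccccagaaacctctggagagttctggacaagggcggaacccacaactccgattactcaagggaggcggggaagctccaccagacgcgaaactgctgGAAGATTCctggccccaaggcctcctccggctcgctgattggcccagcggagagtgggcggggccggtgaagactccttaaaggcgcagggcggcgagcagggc
Hspb1: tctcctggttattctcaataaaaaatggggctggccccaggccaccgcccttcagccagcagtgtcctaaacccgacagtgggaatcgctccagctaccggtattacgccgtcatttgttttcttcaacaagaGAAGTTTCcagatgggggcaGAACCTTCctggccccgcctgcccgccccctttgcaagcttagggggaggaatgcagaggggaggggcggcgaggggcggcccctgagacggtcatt
Dnajb1: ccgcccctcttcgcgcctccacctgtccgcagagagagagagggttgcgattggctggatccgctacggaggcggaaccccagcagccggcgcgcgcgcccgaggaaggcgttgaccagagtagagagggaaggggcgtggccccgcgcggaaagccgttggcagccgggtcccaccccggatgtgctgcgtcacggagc

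Hspa1a and Hspa1b held the motif at the same place, 104 bases before the start, and their 250 upstream bases differed at 3 positions. Hspb1 held it 117 and 97 bases before the start. The motif was in 15.06% of all 32851 RefSeq promoter windows of 300 bases (250 before to 50 after a start), so a single match is common. The longer form with 3 units (GAANNTTCNNGAA or TTCNNGAANNTTC, overlapping the shorter one) was in 0.6027% of windows. Among the members, the longer form was in the windows of Hsph1, Hspe1 and 1 of the 2 windows of Hspd1. Dnajb1 had 0 matches in its 2 windows and Dnaja1 had 1 match in 1 of 3. Hsp90aa1 and Hspa8 had no entry, so 8 of 10 members could be searched. These matches describe letters only. The open reading frames of Hspa1a and Hspa1b were identical at 1918 of 1929 bases (99.43%), while of 251 stretches of 50 bases in the last 300 of either transcript 0 occurred in the other. Reads from most of the frame cannot be told apart between the pair, while stretches of 50 bases from the last 300 can. Where the reads fell along the transcripts was not examined, so how far the split between these genes holds is uncertain. The annotated starts of Hspe1 and Hspd1, which are read in opposite directions, lie 111 bases apart, and the 2 genes overlap between them.

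Within classes, 7 of 119 tested pairs of member and class passed edgeR's quasi-likelihood test at a Benjamini-Hochberg adjusted p under 0.05, with adjustment over all genes of the class. In CCl4 libraries Hspa1a and Dnajb1 were lower in the T cell class and Hspa1a was lower in smooth muscle. Hsph1 was higher in B cells, Hspa8 in blood endothelial cells, and Hspa1b and Hspb1 in goblet cells. Counts of members and listed genes at an unadjusted p under 0.05 are also given below. The share of all genes under that limit is not given, so these counts are a description. Outside T cells the share of all genes that DESeq2 called is not given either, so its calls there are a description too. All 10 members had a negative log2 fold change (CCl4 over control) in T cells, whereas all 9 members tested in B cells and all 10 in goblet cells had a positive one. Over all genes tested, 50.54% were negative in T cells, 48.75% in B cells and 49.96% in goblet cells. The data thus go against calling the fall one of lymphocytes: of the 3 lymphocyte classes, T cells and B cells had opposite signs, and plasma cells had a median of 0.05 over the members with 0 called. The total of 7 was higher with each library left out in turn. In T cells the calls over all genes rose in each of these fits as well.

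**Figure D1:**
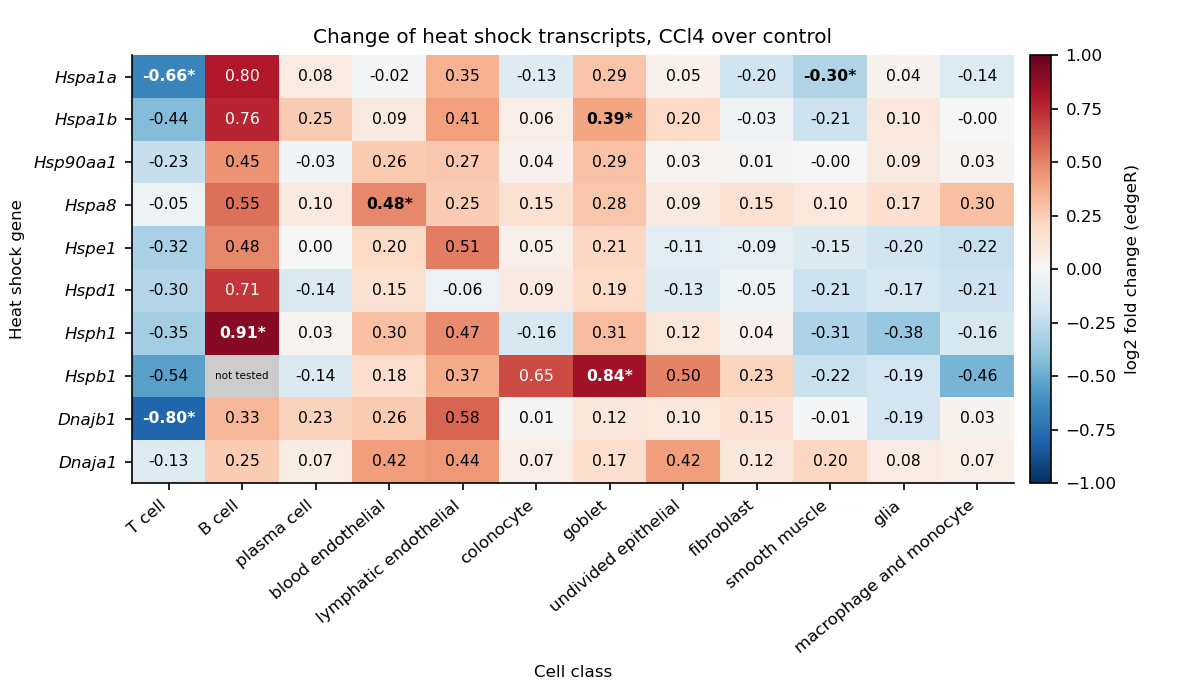
Log2 fold change of each heat shock gene (rows) in each cell class (columns), CCl4 over control, from edgeR on 2 summed libraries per group; blue is lower and red higher in CCl4, and bold values with a star passed the test at an adjusted p under 0.05. The T cell column is negative for all 10 genes and the B cell and goblet columns are positive for every gene tested.

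Hspa1a, the strongly heat-inducible Hsp70, fell in the T cell class. It stood at 8478 and 8585 CPM in control libraries, against 5713 and 5098 CPM in CCl4 libraries. The 2 groups did not overlap, and the log2 fold change was -0.66 (SE 0.0924, adjusted p = 0.00429 by edgeR's quasi-likelihood test). Dnajb1, the inducible J-domain partner of Hsp70, also fell, from 1572 and 1457 CPM to 918 and 827 CPM, with a log2 fold change of -0.80 (SE 0.102, adjusted p = 0.00226 by the same test). In T cells 0.614% of 11888 genes were called in either direction and 0.202% were called lower, against these 2 of 10 members.

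The other 8 members did not pass in T cells. Hspa1b, the near copy of Hspa1a, had 5420.0 and 6025 CPM in control and 4233 and 4220.3 CPM in CCl4 libraries, without overlap (log2 -0.44, adjusted p = 0.0608 by edgeR). Leaving out 1 library at a time gave Hspa1b log2 fold changes from -0.51 (control library 1 dropped) to -0.36 (control library 2 dropped). With the counts of Hspa1a and Hspa1b added to each other before the fit, the pair had a log2 fold change of -0.57 (adjusted p = 0.00864 by edgeR). The Hsp110 protein Hsph1, which serves Hsp70 as exchange factor, had 2568 and 2622 against 2104 and 1981 CPM (log2 -0.35, adjusted p = 0.182). Thus the groups of both genes lay apart, but by less than edgeR's adjusted test required. DESeq2's Wald test called both (adjusted p = 0.00115 and 0.0376), in a class where it called 73 of 11888 genes. The inducible Hsp90 gene Hsp90aa1 had 6373 and 7023 against 5857 and 5538 CPM (log2 -0.23). The mitochondrial chaperonins Hspe1 and Hspd1 had log2 fold changes of -0.32 and -0.30. Hspb1 was low in T cells, with 91.1 and 71.7 against 51.2 and 60.9 CPM. In 2 members the libraries of the groups overlapped: Hspa8, the constitutive Hsp70, had 6421 and 6049.5 against 6136 and 5926 CPM (log2 -0.05), and the J-domain protein Dnaja1 had a log2 fold change of -0.13. The share of all genes without such overlap is not given here, so lack of overlap is a description only. For 1 gene, a full split of 2 against 2 libraries has a p of 0.333 by an exact two-sided permutation test. The median over the 10 members was -0.34, beside a median of -0.004 over all genes tested. At an unadjusted p under 0.05, for which no share of all genes is given, 8 of the 10 were lower.

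Members also fell within each of the 2 clusters that make up the T cell class. In cluster 9, led by the type 2 cytokine genes Il5 and Il4 besides Ifng, Hspa1a went from 13046 and 13757 CPM to 7856 and 7468 CPM (log2 -0.81, adjusted p = 0.00015 by edgeR). Hspa1b fell there by 0.61 (adjusted p = 0.00265) on the log2 scale, and Dnajb1 fell with a log2 fold change of -1.001 (adjusted p = 0.00113). So 3 of 10 members were called in cluster 9, where 0.472% of all genes were called. In cluster 7, with Icos and the cytotoxic genes Gzma and Gzmb among its leading genes, Dnajb1 fell from 1125 and 1028 CPM to 719.6 and 741 CPM (log2 -0.56, adjusted p = 0.0181 by edgeR), as 1 member of 10 against 0.55% of all genes. Hspa1a had 5494 and 5216 CPM in control and 4313 and 3419.6 CPM in CCl4 libraries of cluster 7 (log2 -0.47, adjusted p = 0.0738). The difference between the 2 clusters was not tested. Without control library 1, Dnajb1 in cluster 7 was no longer called (log2 -0.49, adjusted p = 0.108). Over the T cell and endothelial clusters 5 calls were made with all libraries, 12 without CCl4 library 1 and 8 without CCl4 library 2.

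The lower Hspa1a level went with fewer T cells of high counts. After thinning every cell to 1000 UMIs, 72.5% and 72.5% of control T cells and 72.5% and 70.1% of CCl4 T cells had at least 1 Hspa1a UMI. The share with at least 10 was 28.2% and 30.5% in control and 19.4% and 19.1% in CCl4 libraries, and the share with at least 20 was 14.64% and 14.98% against 6.87% and 6.17%. The mean per cell was 8.44 and 8.81 UMIs against 5.61 and 5.36 UMIs. The share with any Hspa1a UMI was thus close between the groups over the whole class, but in cluster 9 it was 84.2% and 82.9% in control and 80.7% and 76.7% in CCl4 libraries, without overlap, and in cluster 7 it was 63.7% and 63.3% against 65.8% and 64.2%. In cluster 9 the share with at least 10 was 44.7% and 45.3% against 27.0% and 27.7%, and in cluster 7 it was 15.8% and 17.6% against 13.1% and 11.5%. These shares were set beside the fit as a description. For a single value of 2 against 2 libraries, an exact two-sided permutation test cannot give a p below 0.333. Dnajb1 was found in 47.8% and 46.7% of control T cells and in 41.9% and 42.1% of CCl4 T cells after thinning. In goblet cells, the class with the lowest Hspa1a level, 57.6% and 58.5% of control and 65.9% and 65.9% of CCl4 cells had a Hspa1a UMI after the same thinning. Before thinning the median depth was 3379 counts in cluster 7, 2751 in cluster 9 and 12039.5 in goblet cells.

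**Figure D2:**
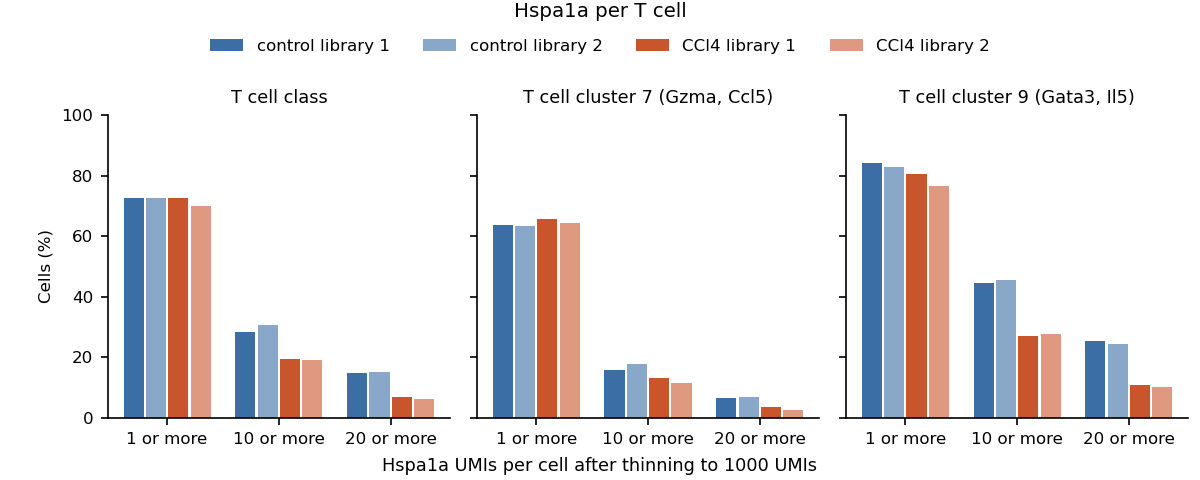
Share of T cells (y axis, percent) with at least 1, 10 or 20 Hspa1a UMIs after thinning to 1000 UMIs per cell, for the whole class and its 2 clusters, 1 bar per library. At 1 or more UMIs the CCl4 bars of cluster 9 are lower and those of cluster 7 are not, and at 20 or more all CCl4 bars are lower, where the class has 14.64% and 14.98% in control against 6.87% and 6.17% in CCl4 libraries.

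Transcripts of other cell types also differed between the T cell sums. The 9 epithelial transcripts checked summed to 470.2 and 428 CPM in control and 1055 and 1099.9 CPM in CCl4 T cells, and 7 plasma cell transcripts to 1363 and 1832 against 595 and 542 CPM. The 5 T cell transcripts checked summed to 1551 and 1509 CPM and 1348 and 1349.7 CPM. Red cell transcripts were at 1734 CPM in CCl4 library 2 and at 20.9 to 90.8 CPM in the others, and without that library Hspa1a was still lower (log2 -0.57) and called. The median mitochondrial share of T cells was 4.84% and 4.42% in control and 5.93% and 5.59% in CCl4 libraries. The part of these values in the heat shock result was not tested.

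The T cell call was lost in some clusterings. When cells were clustered without the heat shock and related listed genes, or with doublets kept, 2405 and 2442 lymphoid cells led by Icos and Gata3 formed a cluster that the marker rule left unnamed. The remaining T cell class, most of whose cells were in a cluster led by Ccl5 and Gzma, then had a Hspa1a log2 fold change of -0.32 (adjusted p = 0.188) and -0.27 (adjusted p = 0.328) by edgeR. At resolution 2.0, by contrast, a cluster of 1286 cells led by Icos and one of 587 cells led by Gata3 were also unnamed and outside the class, and the calls stayed (Hspa1a log2 -0.62, adjusted p = 0.00095; Dnajb1 log2 -0.74, adjusted p = 0.000585). In the unnamed cluster of the clustering without listed genes, Hspa1a fell by 0.79 (adjusted p = 1.33e-05), Dnajb1 by 0.97 (adjusted p = 1.27e-05) and Hspa1b by 0.56 (adjusted p = 0.00152) on the log2 scale. Hspa1a stood at 10729 and 10965 CPM without TMM scaling in the controls of that cluster, against 6595 and 6128 CPM after CCl4. With doublets kept there was a further unnamed lymphoid cluster, in which 0 of 3754 genes were called. There Hspa1a (log2 -0.28) and Dnajb1 (log2 -0.24) were negative. The other members were positive there, from 0.08 for Hspa8 to 2.19 for Hspb1. With the lymphoid clusters joined in the clustering without listed genes and in that with doublets kept, the class again had a Hspa1a log2 fold change of -0.66 and -0.69, called in both cases. In the class as first formed, leaving out any 1 library gave -0.75 to -0.57, called each time.

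**Figure D3:**
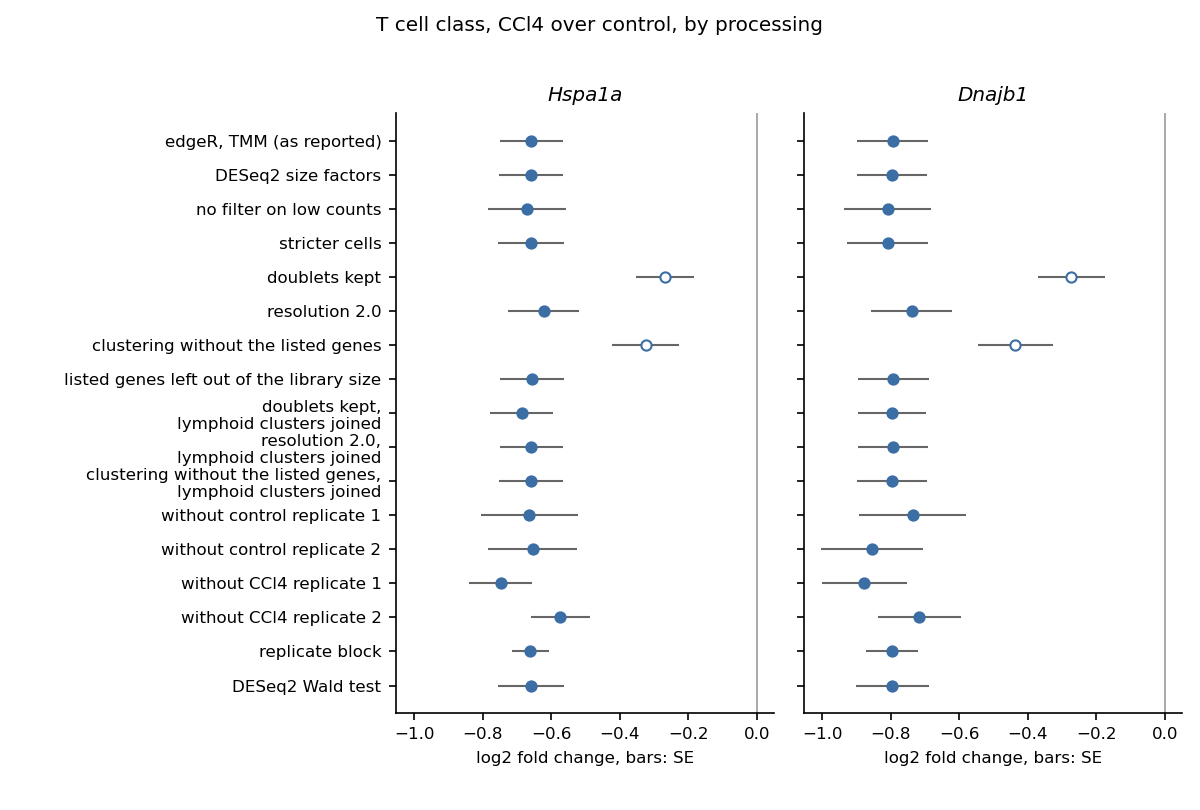
Log2 fold change of Hspa1a and Dnajb1 in the T cell class (x axis, CCl4 over control, bars are the standard error) under each way of processing the data (rows); filled points passed the test and open points did not. All values are below 0, and the open points are the clusterings with doublets kept and without the listed genes. At resolution 2.0, where Icos and Gata3 cells were also outside the class, the points are filled.

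B cells had changes of the other sign, on few cells: 47 and 31 per control library against 153 and 143 per CCl4 library. Hsph1 was at 1368 and 1395 CPM in control and 2639.9 and 2548 CPM in CCl4 libraries, with no overlap (log2 0.91, SE 0.17, adjusted p = 0.0438 by edgeR). It was 1 of 9 members called, where 0.184% of 3801 genes were called and 0.158% were called higher. Hspa1a had 2711 and 2400.5 CPM against 5009.9 and 3905 CPM (log2 0.80, adjusted p = 0.109), and Hspa1b had 1999 and 1454 CPM against 3498 and 2403 CPM (log2 0.76, adjusted p = 0.318). In both the CCl4 libraries lay above the controls without passing. Hspd1 had a log2 fold change of 0.71, Hspa8 of 0.55, Hspe1 of 0.48, Hsp90aa1 of 0.45, Dnajb1 of 0.33 and Dnaja1 of 0.25. The median of the 9 was 0.55, beside 0.02 over all genes. At an unadjusted p under 0.05, for which no share of all genes is given, 7 of 9 were higher. Hspb1 did not pass the filter on low counts in B cells.

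The share of B cells with a Hspa1a UMI after thinning was 40.4% and 41.9% in control and 61.4% and 58% in CCl4 libraries (unthinned 57.4% and 48.4% against 77.1% and 72.7%). More B cells thus had any Hspa1a in CCl4 libraries. The Hsph1 call was lost without CCl4 library 1 (log2 0.94, adjusted p = 0.565), without CCl4 library 2 (log2 0.99, adjusted p = 0.244) and with doublets kept (log2 0.59, adjusted p = 0.687). Plasma cell transcripts summed to 5180.4 and 4339.5 CPM in control and 2557 and 2466 CPM in CCl4 B cells, and epithelial transcripts to 474 and 371 against 1329 and 1475 CPM; the part of these in the result was not tested. In plasma cells 0 of 10 members were called, against 1.17% of 10978 genes by edgeR, DESeq2 called 0, and 1 member was higher at an unadjusted p under 0.05: Hspa1b, with 4047 and 4002 CPM against 4753 and 4835 CPM (log2 0.25, adjusted p = 0.238).

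In blood endothelial cells the constitutive Hsp70 gene Hspa8, which also strips clathrin from vesicles, was higher in CCl4 libraries. It had 2637 and 2418 CPM in control and 3565 and 3503 CPM in CCl4 libraries, without overlap (log2 0.48, SE 0.0905, adjusted p = 0.0201 by edgeR). This was 1 of 10 members, where 0.459% of 11976 genes were called and 0.317% were called higher, and the call held without each library in turn (log2 0.42 to 0.56). Its partner Dnaja1 had 1126 and 1051 CPM against 1521 and 1386 CPM (log2 0.42, adjusted p = 0.0676) and missed the threshold in edgeR, while DESeq2 called it (adjusted p = 0.00147). Hspa1a did not follow: it had 7291 and 5936 CPM against 6683 and 6399.7 CPM, with overlapping groups and a log2 fold change of -0.02. The median of the members was 0.23, beside -0.004 over all genes, with 9 of 10 positive. Epithelial transcripts in these cells summed to 328 and 353 CPM in control and 687 and 685 CPM in CCl4 libraries, and their part in the result was not tested.

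In lymphatic endothelial cells, with 63 to 105 cells per library, 0 of 10 members were called by edgeR, as were 0.0795% of 5033 genes. At an unadjusted p under 0.05, a looser limit than that of the 0.0795%, 9 of 10 were higher. The share of all genes at this looser limit is not given, so the count is a description. The median over the members was 0.39 beside 0.0008 over all genes. DESeq2 called 0 of the 8 members to which it gave an adjusted p. Hspa1a had 5413 and 5504 CPM in control and 6811 and 7057 CPM in CCl4 libraries (log2 0.35, adjusted p = 0.269). Dnajb1 had 263 and 202 CPM against 361 and 337 CPM (log2 0.58), and Hspe1 had 633 and 552 CPM against 784 and 915 CPM (log2 0.51). For these 3 genes both CCl4 libraries lay above both controls. Hspd1 was the exception, with a log2 fold change of -0.06. Red cell transcripts summed to 2494 CPM in CCl4 library 1 and to 14.1 to 91.9 CPM in the others; their part was not tested.

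Of the epithelial classes, goblet cells, which secrete mucus, had the changes that passed. Hspb1 had 34.9 and 34.9 CPM in control and 65.4 and 59.3 CPM in CCl4 libraries (log2 0.84, SE 0.124, adjusted p = 0.00451 by edgeR). Hspa1b had 1143 and 1186 CPM against 1487 and 1572 CPM (log2 0.39, SE 0.0683, adjusted p = 0.0157). The groups did not overlap in either gene. Goblet cells numbered 245 and 258 in control and 839 and 740 in CCl4 libraries, and their median mitochondrial share was 5.78% and 6.07% against 7.88% and 7.36%; the part of these in the result was not tested. The called genes were 2 of 10 members, where 0.927% of 12404 genes were called and 0.645% were called higher. Hspa8 had 2028 and 1963 against 2376 and 2460.0 CPM (adjusted p = 0.0606) and Hspa1a 1654 and 1496 against 1930.0 and 1908 CPM (log2 0.29, adjusted p = 0.0821), just short of the threshold. DESeq2 called Hspa1b, Hspa8, Hspa1a, Hsp90aa1 and Hsph1 and gave Hspb1 no adjusted p. The share of all genes that DESeq2 called in goblet cells is not given, so its calls are a description. The median over the members was 0.28 beside 0.0003 over all genes. At an unadjusted p under 0.05, for which no share of all genes is given, 9 of 10 were higher.

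Both goblet calls were lost without most of the single libraries. Hspb1 was lost without control library 1 (log2 0.84, adjusted p = 0.216), control library 2 (log2 0.83, adjusted p = 0.179) or CCl4 library 1 (log2 0.77, adjusted p = 0.105), and it moved to 0.42 (adjusted p = 0.209) with doublets kept. Hspa1b was lost without control library 1 (log2 0.37, adjusted p = 0.264), control library 2 (log2 0.41, adjusted p = 0.195) or CCl4 library 2 (log2 0.36, adjusted p = 0.169). Hspb1 was rare in goblet cells: after thinning, 3.27% and 2.71% of control and 5.01% and 3.92% of CCl4 goblet cells had a UMI. T cells had 3.57%, 3.7%, 4.31% and 3.39% and colonocytes 0.965%, 0.548%, 1.85% and 1.57% in the same libraries. The goblet shares were below those of T cells in both control libraries and above them in both CCl4 libraries. UMIs from free RNA and expression cannot be told apart at such shares, and no expression of Hspb1 in goblet cells is read from them. Blood endothelial cells, by contrast, had 57.6% to 66.4%.

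Colonocytes, the absorptive cells, had 0 of 10 members called against 1.14% of 12960 genes, and undivided epithelial cells 0 of 10 against 0.131% of 10668 genes by edgeR. At an unadjusted p under 0.05 there was 1 member in colonocytes and 2 in undivided epithelial cells, all higher, and DESeq2 called 0 in both classes. In colonocytes this was Hspb1, with 16.2 and 13.8 CPM against 25.8 and 21.4 CPM (log2 0.65, adjusted p = 0.0647 by edgeR). Hspa1a in colonocytes leaned the other way, with 2754 and 2596 CPM against 2496 and 2386 CPM (log2 -0.13, adjusted p = 0.548). In undivided epithelial cells Dnaja1 had 451 and 494 CPM against 638 and 625 CPM (log2 0.42, adjusted p = 0.341). The medians over the members were 0.06 and 0.10. Differences between goblet cells and the other 2 epithelial classes were not tested.

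Smooth muscle was the other class with a fall. Hspa1a had 7563 and 7179.9 CPM in control and 6113 and 5874 CPM in CCl4 libraries, with no overlap (log2 -0.30, SE 0.0584, adjusted p = 0.00668 by edgeR), as 1 of 10 members where 2.11% of 10679 genes were called and 0.618% were called lower. The call held without each library in turn (log2 -0.34 to -0.26). In the Actg2 cluster (cluster 16) Hspa1a, Hsph1 and Hspb1 fell by 0.36, 0.57 and 0.56 on the log2 scale and Dnaja1 rose by 0.53, which made 4 of 10 members against 3.42% of all genes. In the other smooth muscle cluster (cluster 12) Hspa1a fell by 0.23, as 1 of 10 against 1.05%. Fibroblast transcripts summed to 1985 and 1945 CPM in control and 3543 and 4084 CPM in CCl4 smooth muscle, and smooth muscle transcripts to 23182 and 22329 against 18043 and 18828 CPM. The median mitochondrial share there was 7.01% and 6.7% against 8.08% and 7.97%; the part of these in the result was not tested.

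Leaving out libraries removed most of these cluster calls. In cluster 16, Hsph1 and Dnaja1 were lost without each library in turn (log2 -0.66 to -0.48 and 0.47 to 0.56). Hspa1a was lost there without control library 1 (log2 -0.27) or CCl4 library 2 (log2 -0.22), and Hspb1 without CCl4 library 2 (log2 -0.37). In cluster 12, Hspa1a was lost without CCl4 library 1 (log2 -0.17) or CCl4 library 2 (log2 -0.30). Together the fibroblast and smooth muscle clusters gave 9 calls with all libraries, and 3 and 2 without CCl4 library 1 and 2.

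The fibroblast class had 0 of 10 members called against 1.97% of 15549 genes by edgeR, DESeq2 called 0, and 1 was lower and 1 higher at an unadjusted p under 0.05. In its cluster 2, led by Adamdec1, a gene of fibroblasts of the lamina propria, 4 of 10 members were higher, against 2.08% of all genes. Dnaja1 had 448 and 394 CPM in control and 592 and 605 CPM in CCl4 libraries (log2 0.51, adjusted p = 0.00137 by edgeR), and this call held without each library in turn. In the same cluster Dnajb1 had 218 and 214 CPM against 304 and 301 CPM (log2 0.48), and was lost without CCl4 library 1 (log2 0.48) or CCl4 library 2 (log2 0.48). Hspb1 (log2 0.59) was lost without control library 1 (log2 0.47), CCl4 library 1 (log2 0.52) or CCl4 library 2 (log2 0.64), and Hsp90aa1 (log2 0.30) without control library 1 (log2 0.29), CCl4 library 1 (log2 0.28) or CCl4 library 2 (log2 0.30). Both J-domain genes thus had the opposite sign in cluster 2 to that in T cells; the difference was not tested. In the fibroblast clusters 0, 11 and 17, 0 of 10 members passed by edgeR, against 0.738%, 0.322% and 0.141% of all genes, with 3, 5 and 2 members at an unadjusted p under 0.05.

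Glia and the macrophage and monocyte class had 0 of 10 members called by edgeR, against 0.62% and 1.48% of their genes, and DESeq2 called 0 and 1. At an unadjusted p under 0.05, glia had 1 lower and 1 higher member and macrophages 3 lower and 1 higher. The largest fold change among these was that of Hspb1 in macrophages, with 149 and 122 CPM against 91.1 and 106 CPM (log2 -0.46, adjusted p = 0.13 by edgeR). Hspa8 in macrophages had 3556 and 3229 CPM against 4135 and 4213 CPM (log2 0.30, adjusted p = 0.0517) and was the gene DESeq2 called. Hspa1b in macrophages stayed between 8391 and 8741 CPM in all 4 libraries.

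The difference between lymphocytes and the other lineages was tested directly as a contrast of changes in 1 fit over all classes, with each class weighted equally. This fit took the spread of class sums around library and class terms, pooled over the classes of the same 4 libraries. Its p-values therefore do not measure the spread between libraries alone, and classes of 1 library are not independent replicates. For T, B and plasma cells together against the 2 endothelial classes, 1 of 9 members passed, Dnaja1 (log2 difference -0.36, SE 0.095, adjusted p = 0.0455 by edgeR), where 0.847% of 2833 genes passed and 0.459% were negative. Dnaja1 was lost without control library 1 (-0.29, adjusted p = 0.192), CCl4 library 1 (-0.39, adjusted p = 0.145) or CCl4 library 2 (-0.32, adjusted p = 0.242). Hspa1a had a difference of -0.09 (adjusted p = 0.646) and Dnajb1 of -0.49 (adjusted p = 0.0864). Without control library 1 Dnajb1 passed instead (-0.71, adjusted p = 0.00453).

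Against the 3 epithelial classes 0 of 9 members passed, while 2.65% of 3543 genes did and 0.734% were negative. The only member at an unadjusted p under 0.05 was Dnaja1 (-0.15, unadjusted p = 0.048 by edgeR). Hspa1a had a difference of 0.00495 with an SE of 0.0681, and the median over the members was 0.005, beside 0.006 over all genes. DESeq2 was not run on these contrasts. An opposite change of lymphocytes as 1 group thus did not pass against epithelial cells and passed for 1 gene against endothelial cells.

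With the T cell class alone in place of all lymphocytes, contrasts that were chosen after the class values were seen, members passed against every class compared. All of them use the same T cell sums, so they are not independent of each other. Against blood endothelial cells 6 of 10 members passed with a negative difference, where 0.181% of 10526 genes passed and 0.095% were negative; Dnajb1 differed by -1.06 (SE 0.16, adjusted p = 0.000125 by edgeR) and Hspa1a by -0.65. Against lymphatic endothelial cells 7 of 10 passed (0.23% of 4790 genes, 0.188% negative), with Hspa1a at -1.01 (SE 0.116). Against goblet cells 8 of 10 passed (1.12% of 10605 genes, 0.245% negative), with Hspb1 at -1.38 and Hspa1a at -0.95. Against colonocytes 4 of 10 passed (1.38% of 10813 genes, 0.129% negative): Hspa1a, Hspa1b, Hspb1 and Dnajb1. Hspb1 was rare in T cells, goblet cells and colonocytes, where UMIs from free RNA and expression cannot be told apart. Its sign in T cells reversed with doublets kept (0.15) and with clustering without the listed genes (0.33).

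Within the lymphocytes, 8 of 9 members differed between T cells and B cells (0.905% of 3755 genes, 0.666% negative), the exception being Dnaja1 (-0.39, adjusted p = 0.196 by edgeR). Hspa1a differed by -1.46 (SE 0.126) and Hsph1 by -1.25 (SE 0.165). These SEs come from the spread pooled over classes, and in the B cell class on its own only Hsph1 had passed. Against plasma cells 3 of 10 passed (0.384% of 10168 genes, 0.275% negative), namely Hspa1a, Hspa1b and Dnajb1. The median differences ran from -0.35 against plasma cells to -0.9997 against B cells, and every member tested was negative in each of these contrasts. The count against blood endothelial cells fell from 6 to 2 without CCl4 library 1 and to 3 without CCl4 library 2, that against colonocytes from 4 to 2 without either, and that against goblet cells from 8 to 4 without CCl4 library 2. With doublets kept, where the Icos and Gata3 cells were outside the T cell class, the counts were 0 against blood endothelial, lymphatic endothelial, colonocyte and plasma cells, 1 against goblet cells and 3 against B cells. At resolution 2.0, where such cells were outside as well, they were 6, 6, 3 and 3 against the same 4 classes, 7 against goblet cells and 8 against B cells. With doublets kept and those cells joined again they were 9 against blood endothelial, 3 against lymphatic endothelial, 4 against colonocytes, 9 against goblet, 7 against B and 3 against plasma cells.

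**Figure D4:**
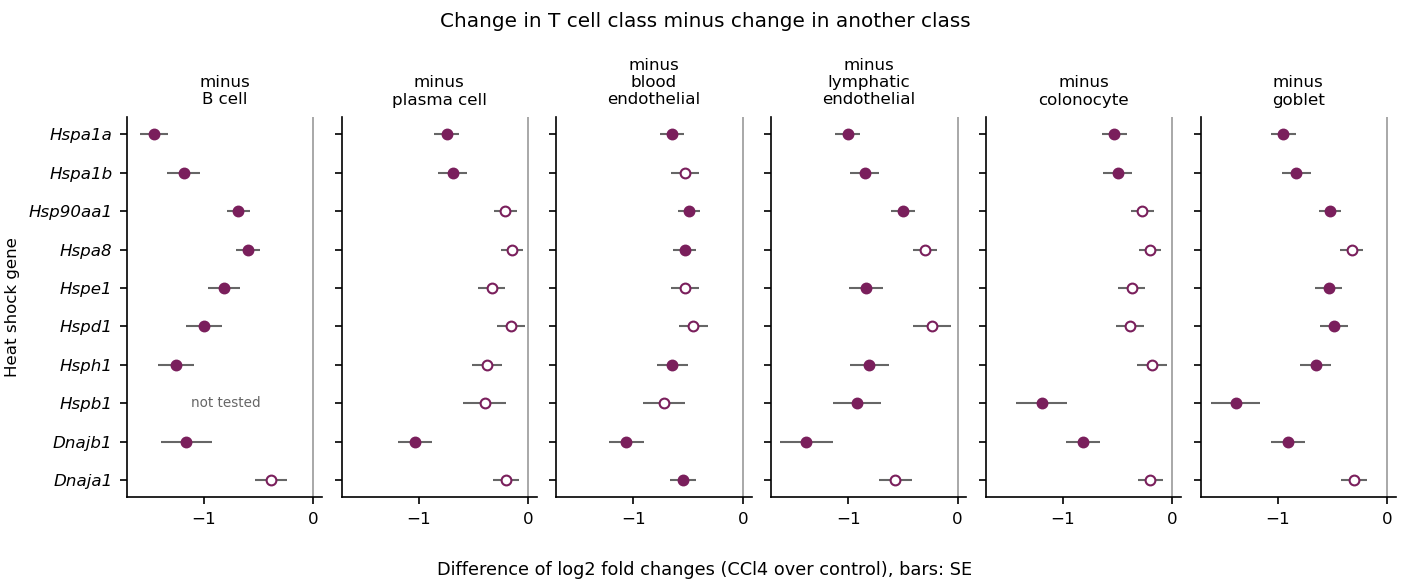
Change in the T cell class minus the change in another class (x axis, difference of log2 fold changes with its standard error) for each heat shock gene (rows), 1 panel per class compared; filled points passed the test at an adjusted p under 0.05. Every point lies to the left of 0, farthest for Hspa1a against B cells at -1.46. Hspb1 against goblet cells and Dnajb1 against lymphatic endothelial cells follow, both at -1.38. Hspb1 was rare in T cells and in goblet cells.

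The order of the classes is a description, given as the mean over the 4 libraries with the lowest and highest library. In plasma cells the 7 plasma cell transcripts checked summed to 554727 and 532663 CPM in control and 497851 and 499424 CPM in CCl4 libraries. They lower the CPM of every other gene there, so the place of plasma cells in each order below depends on them. Hspa1a was highest in macrophages and monocytes at 12896 CPM (11847 to 14442), then in glia at 9102 CPM (8659.5 to 9449), each apart from the next class. Plasma, T, smooth muscle, blood endothelial, lymphatic endothelial and fibroblast cells followed, each overlapping its neighbour. B cells overlapped fibroblasts and undivided epithelial cells, colonocytes came next, and goblet cells were lowest and apart at 1747 CPM (1496 to 1930.0), a 7.38-fold span from top to bottom. Hspa1b was likewise highest in macrophages, at 8565 CPM (8392 to 8740.5), and lowest in goblet cells, at 1347 CPM (1143 to 1572), where it overlapped colonocytes.

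T cells had the highest mean of 5 members. Hspa8 was at 6133 CPM (5926 to 6421) in T cells and Dnaja1 at 2393 CPM (2118 to 2609), both above all libraries of the next class, B cells. Hsph1 was at 2319 CPM (1981 to 2622) and Hspd1 at 1475 CPM (1269 to 1655), both overlapping B cells. Dnajb1 was at 1193 CPM (827 to 1572), overlapping glia at 1145 CPM (1049 to 1383). Hsp90aa1 was highest in B cells at 6768 CPM (5430.1 to 8202), overlapping T cells at 6198 CPM (5538 to 7023). Colonocytes were lowest for Hspa8, Hsph1, Hsp90aa1, Hspd1, Hspb1 and Dnaja1, with Hsph1 at 321 CPM (303 to 351), a 7.22-fold span below T cells. Hspe1 varied least, 2.72-fold between undivided epithelial cells at 1759 CPM (1549 to 1942) and fibroblasts at 648 CPM (611 to 724).

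Hspb1, which in muscle and vessel cells is tied to the actin skeleton, had a 75.1-fold span. It was highest in smooth muscle at 1449.8 CPM (1285 to 1589.5) and blood endothelial cells at 1423 CPM (1305 to 1537), which overlapped. Lymphatic endothelial cells at 885.4 CPM (639 to 1037) and glia at 824 CPM (741 to 964) formed the next level, also overlapping. Fibroblasts and plasma cells came next, at 254 CPM (226 to 275) and 238 CPM (205 to 264), and B cells and colonocytes were lowest, at 22.2 CPM (0 to 56.1) and 19.3 CPM (13.8 to 25.8).

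**Figure D5:**
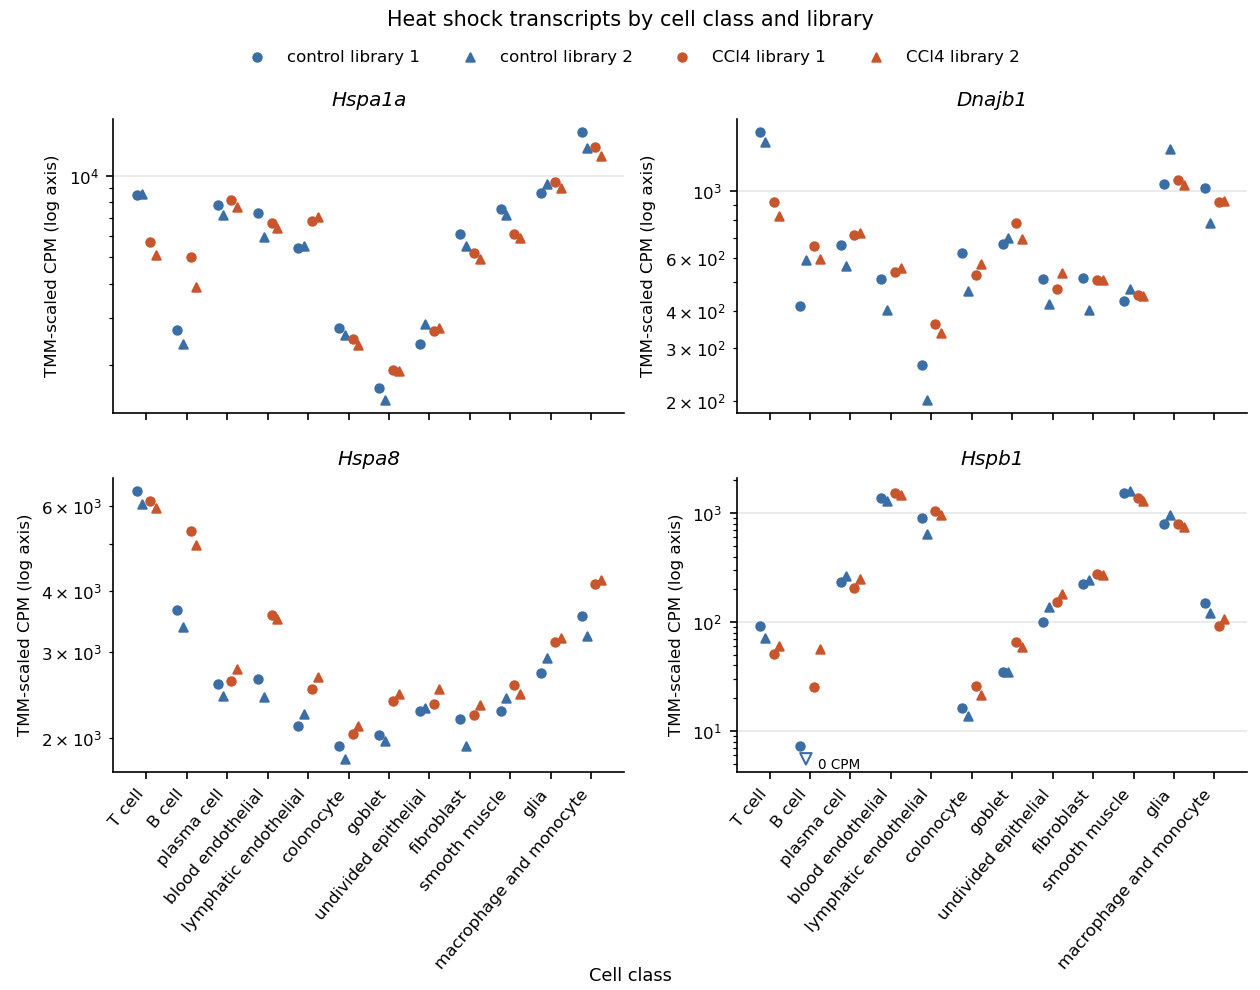
TMM-scaled CPM (y axis, log scale) of Hspa1a, Dnajb1, Hspa8 and Hspb1 in each cell class (x axis), 1 point per library, control blue and CCl4 orange. The orange points lie below the blue ones for Hspa1a and Dnajb1 in T cells, above them for Hspa8 in blood endothelial cells, and Hspb1 spans from 0 CPM in 1 B cell library to 1589 CPM in smooth muscle.

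Over the 48 sums of class and library, each centred on its class mean, the members moved with each other to different degrees. The Pearson correlation of a member with the mean of the other members was 0.84 for Hsph1, 0.83 for Hspa1a, 0.82 for Hspa1b and 0.81 for Hsp90aa1, and it was lowest for Dnajb1 (0.61) and Dnaja1 (0.53). Among 2743 other genes the 8 with the highest correlation to the mean of the members were Hsp90ab1 (0.86), the constitutive Hsp90 gene, Bag3 (0.75), an exchange factor of Hsp70, Ccdc117 (0.73), Usp8 (0.71), Gtf2f1 (0.71), Txn2 (0.71), Fam32a (0.69) and Tsc22d2 (0.69). These sums share libraries and depth. The sums of B cells were the smallest, and there Usp8 had 0 and 0 CPM in control and 61.1 and 65.6 CPM in CCl4 libraries, beside 31.1 and 32.2 against 27.6 and 18.2 CPM in T cells. With a pseudocount of 1 CPM in place of 10, 5 of the 8 genes were again among the 8 highest.

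Of 89 other genes of the chaperone and heat shock pathway, few passed in any class. In T cells 1 of 78 tested was higher and 0 lower by edgeR, where 0.614% of all genes were called, with a median of -0.03 beside -0.34 for the members. At an unadjusted p under 0.05, 9 were lower and 2 higher. That gene was Mt1, a metallothionein that binds zinc and copper, with 27.4 and 27.6 CPM in control and 60.3 and 51.0 CPM in CCl4 libraries (log2 1.02). By edgeR 0 of 54 passed in B cells (median 0.08), with 5 higher and 0 lower at an unadjusted p under 0.05, and 0 of 67 in lymphatic endothelial cells (median 0.13), with 7 higher and 1 lower. In colonocytes 0 of 79 passed, with 11 higher and 3 lower at an unadjusted p under 0.05, in undivided epithelial cells 0 of 75, with 5 and 4, and in glia 0 of 77, with 6 and 2. In blood endothelial cells 2 of 80 rose and 0 fell (median 0.11), beside 0.459% of all genes called: Cacybp, a co-chaperone linked to protein degradation, had 126 and 95.7 CPM against 169 and 178 CPM (log2 0.65), and Mt2 had 10.4 and 11.97 CPM against 46.5 and 22.9 CPM (log2 1.64). In goblet cells, with 0.927% of all genes called, 1 of 79 rose, Gadd45b (log2 0.50), and 1 fell, Mt2 (log2 -0.50).

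In fibroblasts 5 of 82 genes of this list fell and 1 rose, in a class where 1.97% of all genes were called. The 3 with the smallest p were chaperone genes of the endoplasmic reticulum: Dnajc3 (log2 -0.55), Hsp90b1 (log2 -0.49) and Hspa5 (log2 -0.42). Hspa5, the Hsp70 of that compartment, had 3015 and 2751 CPM in control and 2192 and 2113 CPM in CCl4 fibroblasts, without overlap. In plasma cells, which secrete antibody, Hspa5 was the 1 gene of 78 that rose and 0 fell, beside 1.17% of all genes called, from 2054 and 2029 CPM to 2799 and 2967 CPM (log2 0.50, adjusted p = 0.0369 by edgeR). Hsp90b1 was the 1 of 77 that fell in macrophages and monocytes (log2 -0.36; 1.48% of all genes called), and the cytosolic chaperonin subunit Cct7 the 1 of 81 that fell in smooth muscle (log2 -0.47; 2.11% of all genes called).

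Immediate early genes, which rise within minutes in stressed or dissociated cells, were followed as a second list of 22. In T cells 0 of 22 passed by edgeR, with a median of -0.02, while the members there had a median of -0.34. At an unadjusted p under 0.05, 5 were lower and 1 higher in T cells. In B cells 0 of 22 passed with a median of 0.41 and 7 higher at an unadjusted p under 0.05. In blood endothelial cells 0 passed with a median of 0.12 and 5 higher, and in lymphatic endothelial cells 0 with a median of 0.22 and 4 higher. In plasma and undivided epithelial cells 0 passed, with 3 and 1 higher and 3 and 1 lower at an unadjusted p under 0.05. The classes with calls in this list are given with the share of all genes called there. In goblet cells (0.927%) Jun rose (log2 0.37) and Klf6 fell (log2 -0.38). In colonocytes (1.14%) 3 of 22 fell, Nfkbia (log2 -0.43), Egr1 (log2 -0.41) and Ier3 (log2 -0.39). In smooth muscle (2.11%) Klf4 rose (log2 0.51), and in glia (0.62%) Socs3 fell (log2 -0.77). In fibroblasts (1.97%) Socs3 and Fosb rose, and in macrophages and monocytes (1.48%) Fosb and Egr1 rose and Klf2 fell. All libraries were dissociated, so that heat shock transcripts present in the tissue and those made during dissociation cannot be told apart.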

How the data were processed

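Single-cell RNA libraries of mouse colon, 2 control and 2 CCl4, were analysed from the deposited counts, whole numbers of UMIs per gene and barcode that the authors made with PISA v0.12b, per the file headers, on GRCm38, per the submitters' processing notes. The aligner, the strand setting and the cell filter are not given in the sources used here; every barcode held over 1000 counts. Barcodes with under 200 genes or over 25% mitochondrial counts were dropped, and the 6% with the highest doublet scores per library were removed. The rest was clustered with scanpy 1.11.5 (2000 variable genes, 30 components, 15 neighbours, leidenalg 0.10.2 at resolution 1.0); the choice of variable genes was made after seeing clusters, not the members. A cluster was named from 24 marker sets if at least 3 markers led. Class sums per library were fitted with edgeR 4.0.16 (R 4.3.3; TMM, filterByExpr, quasi-likelihood), and p-values were adjusted over all genes of a class. Differences between classes came from 1 fit with library, class and class by treatment terms. On simulated 2-fold changes 65.5% were recovered in T cells, 79.5% in blood endothelial, 87.5% in goblet and 5% in B cells, and 41% in the T cell against blood endothelial contrast. All 10 members were described in every class, and up to 3 called genes of each list with the smallest p were named per class. Members and lists were chosen with earlier results of these data known. The T cell contrasts, the fibroblast and smooth muscle clusters, the joined lymphoid class and the limits of 10 and 20 UMIs were added after seeing the data. Alternatives were DESeq2 1.42.0, no filter on low counts, a stricter cell filter (500 genes, 10% mitochondrial), doublets kept, resolution 2.0, clustering without the listed genes, each library left out and a replicate block. Enteroendocrine cells (101), interstitial cells of Cajal (45) and unnamed clusters (7722 cells) were left untested for want of cells or of a name.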

Additional observations from a re-analysis of the deposited data

Results flagged for a closer look

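Members whose change differed between cell classes, by edgeR's test of the difference itself, are given as the change in the first class minus that in the second, on the log2 scale; no explanation was tested. For all lymphocytes against endothelial cells the difference was -0.36 for Dnaja1. For T cells against blood endothelial cells it was -0.65 for Hspa1a, -0.49 for Hsp90aa1, -0.53 for Hspa8, -0.64 for Hsph1, -1.06 for Dnajb1 and -0.55 for Dnaja1. Against lymphatic endothelial cells T cells differed by -1.01 for Hspa1a, -0.85 for Hspa1b, -0.50 for Hsp90aa1, -0.84 for Hspe1, -0.81 for Hsph1, -0.92 for Hspb1 and -1.38 for Dnajb1. The T cell difference from colonocytes was -0.53 for Hspa1a, -0.50 for Hspa1b, -1.20 for Hspb1 and -0.82 for Dnajb1, and that from goblet cells was -0.95 for Hspa1a, -0.83 for Hspa1b, -0.52 for Hsp90aa1, -0.53 for Hspe1, -0.48 for Hspd1, -0.65 for Hsph1, -1.38 for Hspb1 and -0.91 for Dnajb1. From B cells it was -1.46 for Hspa1a, -1.18 for Hspa1b, -0.69 for Hsp90aa1, -0.60 for Hspa8, -0.82 for Hspe1, -0.9997 for Hspd1, -1.25 for Hsph1 and -1.16 for Dnajb1, and from plasma cells -0.74 for Hspa1a, -0.69 for Hspa1b and -1.03 for Dnajb1. The single-class contrasts use the same T cell libraries and are not independent. They were chosen after the class values were seen, and several of their calls were lost when a library was left out. Hspb1 was rare in T cells, goblet cells and colonocytes, and its sign in T cells reversed in 2 of the clusterings (0.15 and 0.33).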

How the results depend on the processing

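The count of 7 called pairs of member and class became 21 with no filter on low counts, 14 with DESeq2's Wald test, 12 with doublets kept and lymphoid clusters joined, and 11 with clustering without the listed genes and those clusters joined. It was also higher with each library left out. The shares of all genes called over the classes in these settings are not given, so the counts are a description. In T cells 195 of 24205 genes were called with no filter, against 73 of 11888 as first fitted. The 1 call of lymphocytes against endothelial cells became 0 with no filter on low counts, stricter cells, doublets kept, clustering without the listed genes, no library term, the replicate block in place of the library term, or plasma cells left out, and was 0 to 1 with each library left out. Against epithelial cells the 0 calls became 1 with doublets kept and lymphoid clusters joined, and stayed 0 with each library left out. For T cells against blood endothelial cells 6 calls became 1 with stricter cells, 0 with doublets kept, 2 with clustering without the listed genes, 1 with no library term and 3 with the replicate block in place of the library term, and 2 to 6 with each library left out. Against lymphatic endothelial cells 7 became 4 with stricter cells, 0 with doublets kept, 4 without the listed genes, 3 with doublets kept and clusters joined, 4 with the block, and 5 to 7 with each library left out. Against colonocytes 4 became 1 with stricter cells, 0 with doublets kept, 0 without the listed genes and 2 to 4 with each library left out. Against goblet cells 8 became 1 with doublets kept, 3 without the listed genes and 4 to 7 with each library left out. Against B cells 8 became 3 and against plasma cells 3 became 0 with doublets kept. Cluster calls went from 5 to between 6 and 12 (T cell and endothelial) and from 9 to between 2 and 11 (fibroblast and smooth muscle) with each library left out. The mean control level of Hspa1a in T cells was 8532 CPM with TMM scaling and 8442 CPM without it. Of the 8 most similar genes 5 were shared with a pseudocount of 1 CPM. Signs reversed for Hspa8 in T cells with doublets kept (0.0061) and for Hspb1 in T cells with doublets kept (0.15) and with clustering without the listed genes (0.33). Of 926 single values under alternatives, 737 kept direction and side of the threshold, 170 lost and 16 gained a call. The cause of these changes was not tested.

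The replicate numbers of the labels occur in both groups, but what they mean is not given, so they are not treated as pairs. On the log2 scale, the difference of library 1 from library 2 in control was correlated with that in CCl4 over genes. This correlation was -0.02 to 0.17 in the 12 classes. With the number as a replicate block, 21 pairs of member and class were called, and Hspa1a in T cells was at -0.66 (adjusted p = 7.46e-13 by edgeR). In T cells 5 members that had not passed were called with the block: Hspa1b (adjusted p = 2.97e-07), Hsph1 (0.000548), Hspe1 (0.00348), Hsp90aa1 (0.0111) and Hspd1 (0.0152). With the block 224 of 11888 genes were called in T cells, against 73 without it, so calls rose over all genes as well. For the 21 pairs the share over all genes is not given. Depth limits the B cell and lymphatic endothelial classes, with 88950 to 454355 and 266491 to 453093 counts per library. With 2 libraries per group, each value rests on few samples.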
